A study of Homo sapiens with 6 samples.

Results

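The S100 genes encode small calcium-binding proteins that share a pair of EF-hand calcium-binding loops and usually act as dimers. Inside cells they bind annexins, cytoskeletal and regulatory proteins, and several are also released and bind surface receptors such as RAGE. In breast tumours the family is best known for S100A4 and S100P, which have been linked to cell motility and metastasis. The 10 S100 genes described here are S100P, S100A2, S100A3, S100A4, S100A6, S100A10, S100A11, S100A13, S100A14 and S100A16. They were picked by symbol from a table of 63241 genes, with the difference of S100P between the groups already known. All were above 0 in every library, as were S100A5, S100A1 and S100Z, which were not picked. Because of that prior knowledge, differences of the 10 genes between groups are descriptions and carry no test of their own.

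The study measured RNA in MDA-MB-231, an established human breast cancer cell line of triple-negative, mesenchymal type. There were 3 libraries from cells given 40 µM of ArA, which the title spells as arachidonic acid, and kept for 24 h, and 3 libraries from non-treated control cells, for which no vehicle is named. All cells are of the same line, and whether replicates were separate cultures is not stated, so the spread between libraries may be technical. Values are TPM, in which reads are divided by transcript length and scaled to a fixed library total. Levels of different genes can therefore be set side by side, while the depth of each library is unknown.

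VIM, the mesenchymal intermediate filament gene, had 1434 to 1515 TPM in ArA libraries and 1335 to 1441 TPM in control libraries. The hormone receptor genes ESR1 and PGR were at 0.03 TPM or less in all 6 libraries. ERBB2, which encodes the receptor HER2, was at 36.6 to 40.3 TPM in ArA libraries and 32.0 to 41.8 TPM in control libraries. The luminal marker GATA3 was at 3.07 to 4.36 and 3.33 to 3.43 TPM in the same groups. FOXA1, also luminal, was at 2.88 to 3.45 and 3.19 to 3.71 TPM. The 6 blood cell markers used summed to 0.38 to 0.56 TPM in ArA libraries and 0.21 to 0.94 TPM in control libraries, with HBA1 and HBB listed at 0. Keratin genes of epithelial cells were present, KRT8 at 358 to 432 TPM in ArA libraries and 343 to 439 TPM in control libraries. Base composition differed between libraries, with control replicate 2 and ArA replicate 1 at the GC-rich end and control replicate 1 at the other. The median log2 deviation of GC-rich genes less that of GC-poor genes was 0.33, -0.07 and -0.20 in ArA replicates 1, 2 and 3, and -0.32, 0.46 and -0.18 in control replicates 1, 2 and 3. Mitochondrially encoded transcripts took 32.1, 28.0 and 26.9% of the total in ArA replicates 1, 2 and 3, against 32.9, 32.0 and 31.6% in control replicates 1, 2 and 3.

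Of the 10 genes, 9 lie on chromosome 1 and S100P lies alone on chromosome 4. In GENCODE v29 on hg38, S100P (ENSG00000163993) spans 6693069 to 6697170 on the forward strand. S100A6 (ENSG00000197956, 153534599 to 153536244), S100A4 (ENSG00000196154, 153543613 to 153550136) and S100A13 (ENSG00000189171, 153618787 to 153631360) lie on the reverse strand of chromosome 1. Windows of 30 bases around the TATA box (letters TATAAA, searched on both strands) are shown because S100P and S100A4, the 2 genes with the largest fold differences of those in the fit, both have this motif close before their RefSeq start. S100A13, whose groups overlapped, has it as well. The motif was picked from the 6 searched with these differences known, and a link between motif and difference was not tested. The capitals mark the motif, 5′ to 3′ on the gene's strand, from RefSeq on GRCh38.p14.
S100P, chr4:6693838-6693867, forward strand, motif 28 bases before the start: atgaggctgcctTATAAAgcaccaagaggc
S100A4, chr1:153545820-153545849, reverse strand, motif 31 bases before the start: gcctggctggggTATAAAtaggtcagacct
S100A13, chr1:153627517-153627546, reverse strand, motif 29 bases before the start: ttccccgctgctTATAAAcctcagccctga

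All 10 genes matched the RefSeq promoter table, with 14 listed starts, and 3 of those starts had TATAAA within the 250 bases before them, against 10.7% of all 35116 promoters in the table. The CRE half-site (TGACG, both strands) lay before 3 of the 14 starts, those of S100P, S100A6 and S100A13, and in 21.2% of all promoters. S100A13, whose groups overlapped, has the CRE letters on its own strand, 101 bases before a start, and that window is not shown. The same CRE letters are marked here in the S100P and S100A6 windows, where they stand on the opposite strand and so read CGTCA.
S100P, chr4:6693725-6693753, forward strand, motif 141 bases before the start: aggttccagaaaCGTCAtcacaacgatgc
S100A6, chr1:153536204-153536232, reverse strand, motif 229 bases before the start: tgaggggagactCGTCAccaggcgtgcag

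The AP-1 letters TGANTCA were found before 2 of the 14 listed starts, those of S100A2 and S100A3, and in 6.57% of all promoters. The antioxidant response element core TGACNNNGC also lay before 2 of the 14, of S100A13 and S100A14, and in 10.9% of all promoters. The GC box GGGCGG lay before 6 of the 14 listed starts, against 42.6% of all promoters. The DR1 form of the PPAR response element, searched as its consensus on both strands, was in 0 of the 14 windows and in 0.0171% of all promoters. No match of one motif overlapped a match of another. These are matches of letters in 1 window and not measured binding.

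S100P encodes a calcium sensor that binds the membrane linker ezrin and, once released, the receptor RAGE. It had 7.24, 10.67 and 8.27 TPM in ArA replicates 1, 2 and 3, against 3.97, 3.22 and 4.52 TPM in control replicates 1, 2 and 3. Every ArA library lay above every control library, and the lowest ArA value was above the highest control value by 2.72 TPM. The means were 8.73 ± 1.76 TPM in ArA libraries and 3.90 ± 0.653 TPM in control libraries (SD, n = 3 each), a ratio of 2.24. In the limma fit the log2 fold change was 0.98 (SE 0.18) with a 95% interval of 0.56 to 1.40, on a log2(TPM + 1) scale that shrinks differences of genes this low. By that value S100P ranked 41 of 12999 genes in the fit, whose median was 0.06. In bulk RNA, a larger share of cells with the transcript and more transcript per cell cannot be told apart.

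S100A4, also called metastasin, binds non-muscle myosin IIA and promotes the turnover of its filaments. It had 46.4, 43.5 and 52.1 TPM in ArA replicates 1, 2 and 3, against 38.7, 38.6 and 33.5 TPM in control replicates 1, 2 and 3. The groups did not overlap, and the 2 closest libraries were ArA replicate 2 and control replicate 1. The means were 47.3 ± 4.36 TPM in ArA libraries and 37.0 ± 2.97 TPM in control libraries (SD, n = 3 each), a ratio of 1.28. Its log2 fold change came to 0.35 (SE 0.11), with a 95% interval of 0.09 to 0.60. The span of S100A4 takes in that of S100A3 on the same strand, but the annotated exons of the genes share 0 bases.

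S100A6, or calcyclin, which binds annexins and the ubiquitin ligase adaptor CACYBP, was the most abundant member in each library. It had 2486, 2322 and 2547 TPM in ArA replicates 1, 2 and 3, against 1908, 2259 and 2083 TPM in control replicates 1, 2 and 3. All ArA libraries were above all control libraries, with control replicate 2 close below ArA replicate 2. The ratio of means was 1.18 and the log2 fold change 0.24 (SE 0.09, 95% interval 0.03 to 0.44). S100A6 alone made up 56.2, 54.9 and 56.8% of the summed TPM of the 10 genes in ArA replicates 1, 2 and 3, against 53.7, 54.0 and 53.6% in control replicates 1, 2 and 3. These shares are taken within a library, so they do not depend on the scaling between libraries.

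S100A16, a widely expressed member, had 262, 261 and 253 TPM in ArA replicates 1, 2 and 3, against 211, 249 and 231 TPM in control replicates 1, 2 and 3. The groups did not overlap, but control replicate 2 came within 3.47 TPM of the lowest ArA library. The ratio of means was 1.12, with a log2 fold change of 0.17 (SE 0.08) and a 95% interval of -0.03 to 0.37.

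**Figure D1:**
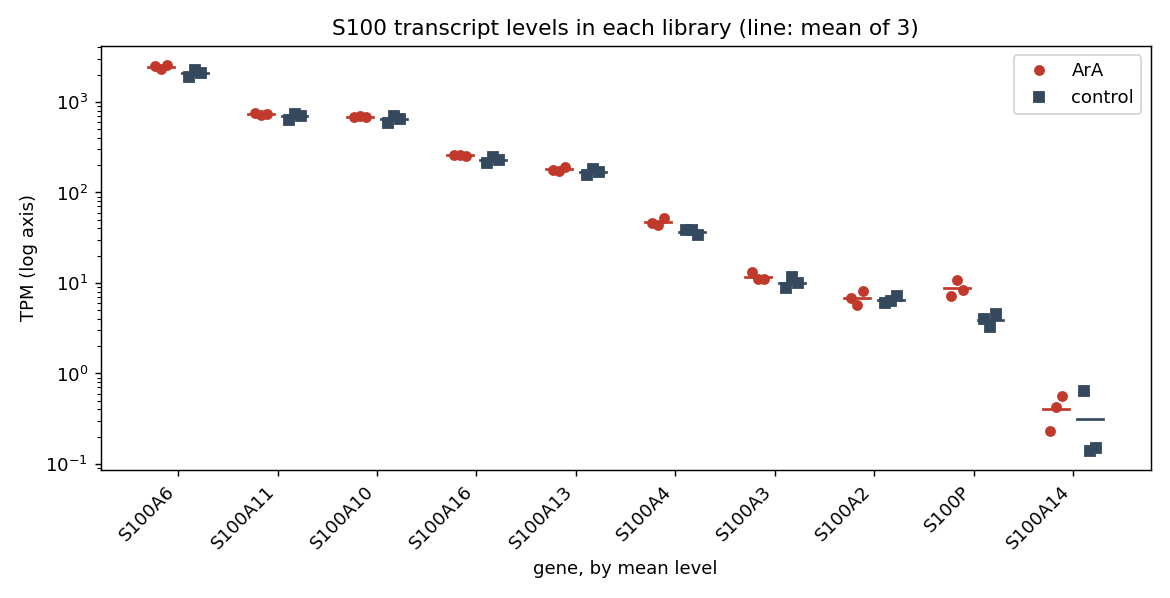
TPM of each of the 10 S100 genes (log axis) in the 3 ArA libraries (red circles) and the 3 control libraries (dark squares), with the mean of each group as a line and genes ordered by mean level. S100P is the gene whose groups lie farthest apart, at 7.24 to 10.67 TPM in ArA libraries and 3.22 to 4.52 TPM in control libraries, while S100A14 stays under 1 TPM.

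S100A10 and S100A11 are annexin partners that were abundant and whose groups overlapped. S100A10, or p11, cannot bind calcium and holds annexin A2 in a tetramer at the plasma membrane. It had 674, 693 and 688 TPM in ArA replicates 1, 2 and 3, against 581, 695 and 649 TPM in control replicates 1, 2 and 3, so that control replicate 2 was the highest of all 6. S100A11, a partner of annexin A1, had 751, 710 and 729 TPM in ArA replicates 1, 2 and 3, against 635, 740 and 702 TPM in control replicates 1, 2 and 3. Their log2 fold changes were 0.10 (95% interval -0.10 to 0.30) for S100A10 and 0.08 (95% interval -0.11 to 0.27) for S100A11. The 8 S100A11 pseudogenes in the table were listed at 0 in all libraries.

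S100A13, which takes part in the export of FGF1 by a route outside the classical secretory pathway, had 179, 172 and 192 TPM in ArA replicates 1, 2 and 3, against 158, 180 and 169 TPM in control replicates 1, 2 and 3. The groups overlapped, and the log2 fold change was 0.10 (95% interval -0.10 to 0.30). Its exons share 235 bases with S100A1 on the opposite strand, and the strand setting of the counting is not stated. They share 536 of 2216 bases with a processed transcript on the same strand, which no strand setting would separate. Mean levels in ArA and control libraries were listed at 0.283 and 0.330 TPM for S100A1 and 5.05 and 4.20 TPM for the processed transcript. How reads of the shared bases were assigned was not tested, so the level of S100A13 is uncertain to that extent. FGF1 itself had 0.52, 0.50 and 0.25 TPM in ArA replicates 1, 2 and 3, against 0.20, 0.21 and 0.24 TPM in control replicates 1, 2 and 3, below the level needed for the fit.

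The low members were S100A3, known from the hair cuticle, S100A2, a p53-binding protein of epithelial cells, and S100A14, an epithelial member. S100A3 had 13.2, 11.07 and 11 TPM in ArA replicates 1, 2 and 3, against 8.88, 11.5 and 9.88 TPM in control replicates 1, 2 and 3, a log2 fold change of 0.20 (95% interval -0.12 to 0.53). S100A2 had 6.86, 5.72 and 8.11 TPM in ArA replicates 1, 2 and 3, against 6.07, 6.31 and 7.20 TPM in control replicates 1, 2 and 3, with a log2 fold change of 0.06 (95% interval -0.30 to 0.42) whose sign depended on the setting. S100A14 had 0.23, 0.43 and 0.56 TPM in ArA replicates 1, 2 and 3, against 0.64, 0.14 and 0.15 TPM in control replicates 1, 2 and 3. The highest of these 6 values for S100A14 was in a control library, and its mean was too low for the fit, which needed an average of 1 TPM or more over the 6 libraries.

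In the fit over 12999 genes, 0 of the 9 S100 genes that entered it passed an adjusted p of 0.05 in limma, where 3 genes (0.0231%) passed in all. The smallest adjusted p among the 9 was 0.690, for S100P. At an unadjusted p under 0.05 there were 3 of the 9 (S100P, S100A4 and S100A6), all higher in ArA libraries, where 2.28% of all tested genes were called in that direction. S100P, S100A4, S100A6 and S100A16 had all ArA libraries above all control libraries, as did 6.84% of all tested genes. Since the members were chosen with this contrast known, nothing is read from these shares. All 9 had positive log2 fold changes, with a median of 0.17, beside 68.9% positive and a median of 0.06 over all tested genes.

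The count of genes with separated groups depended on scaling and on a single control library. It was 4 of 9 as reported. S100P was the only member that stayed separated after scaling by median of ratios, where 2.93% of all tested genes were separated upward. S100P, S100A4 and S100A6 were separated after quantile normalization, against 3.01% of all tested genes. S100P and S100A4 were the members separated once mitochondrially encoded transcripts had been left out of the total, against 3.36% of all tested genes. Without control replicate 2, the highest control library for 6 members, the count was 8 of 9, with S100A2 as the exception. Of all tested genes, 16.8% were then separated upward. Control replicate 1 was the lowest control library for S100A2, S100A3, S100A6, S100A10, S100A11, S100A13 and S100A16. Leaving out control replicate 1 kept the count at 4, against 11.6% of all tested genes. After correction for GC content the same 4 genes were separated, against 4.90% of all tested genes.

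**Figure D2:**
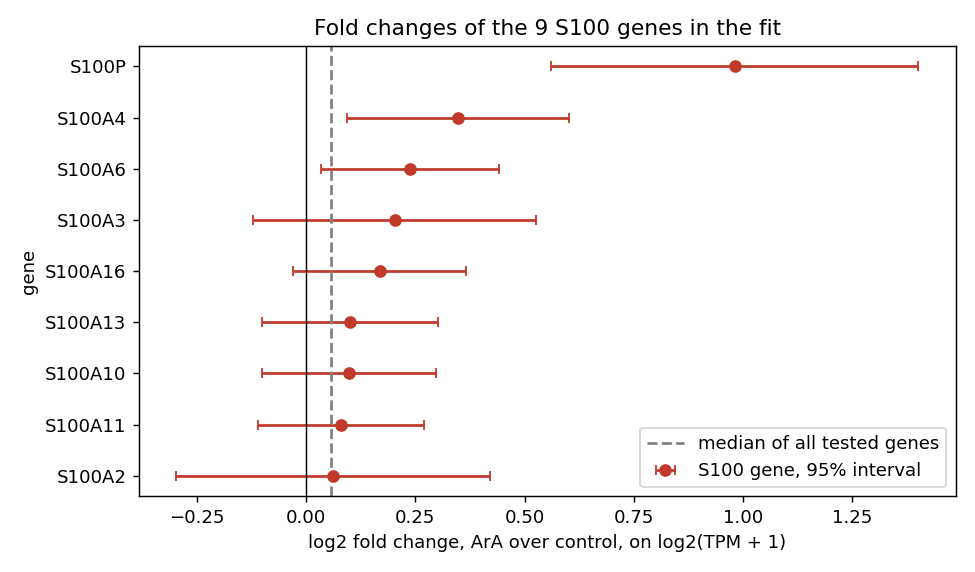
Log2 fold change of ArA over control on the log2(TPM + 1) scale for the 9 S100 genes in the fit (points), with 95% intervals from limma (bars) that are not adjusted for the number of genes. S100P stands at 0.98, the other 8 lie between 0.06 and 0.35, and the dashed line marks the median of all tested genes, 0.06.

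The order of the levels was the same in both groups except for S100P. In ArA libraries the order of mean TPM was S100A6, S100A11, S100A10, S100A16, S100A13, S100A4, S100A3, S100P, S100A2 and S100A14. In control libraries S100P stood after S100A2. Neighbours in the order did not overlap between libraries of the same group, except S100P and S100A2 in ArA libraries and S100A11 and S100A10 in control libraries. The ratio of S100P to S100A2 within a library was 1.06, 1.87 and 1.02 in ArA replicates 1, 2 and 3, against 0.654, 0.510 and 0.628 in control replicates 1, 2 and 3. All 3 ArA libraries thus had a higher TPM for S100P than for S100A2, and all 3 control libraries a lower one. The gap was small in ArA replicates 1 (7.24 against 6.86 TPM) and 3 (8.27 against 8.11 TPM).

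The 10 genes summed to 4425, 4230 and 4488 TPM in ArA replicates 1, 2 and 3, against 3551, 4184 and 3888 TPM in control replicates 1, 2 and 3. That is 0.423 to 0.449% of all transcripts in ArA libraries and 0.355 to 0.418% in control libraries. S100A14 varied most between libraries of the same group, with a coefficient of variation of 40.9% in ArA libraries and 92.2% in control libraries. S100P had the next highest in control libraries, 16.7%, and also in ArA libraries, 20.2%. S100A10 had the lowest in ArA libraries, 1.46%, and S100A13 the lowest in control libraries, 6.62%.

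Taking S100 genes only, those along chromosome 1 formed 2 groups, with S100 genes listed at 0 between them. Genes of other families in between were not examined. S100A10 and S100A11 lie first, then 6 S100 genes (S100A9, S100A12, S100A8, S100A7A, S100A7L2 and S100A7) that were listed at 0 in all 6 libraries. The products of S100A8, S100A9 and S100A12 are abundant in neutrophils and other myeloid cells, and that of S100A7 in inflamed skin. Next comes a block of 96.8 kb from S100A6 to S100A13 with 8 S100 genes, 7 of them members. Levels within this block ranged from S100A6 at 2452 ± 117 TPM in ArA libraries and 2083 ± 175 TPM in control libraries (SD, n = 3 each) to S100A14 at 0.407 ± 0.166 and 0.310 ± 0.286 TPM in the same groups. S100A14 lies between S100A16 and S100A13, both at 157.75 TPM or more in every library.

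**Figure D3:**
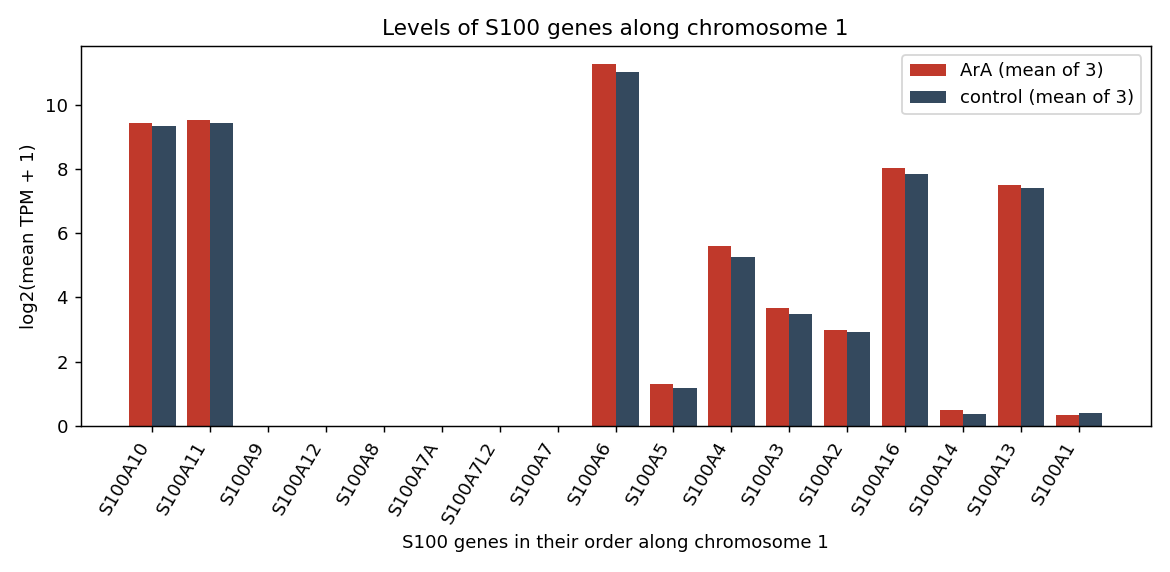
Mean level of the 17 chromosome 1 S100 genes as log2(mean TPM + 1), in their order along the chromosome and not to scale, for ArA libraries (red) and control libraries (dark), n = 3 each. The 6 genes from S100A9 to S100A7 are at 0 in both groups, between S100A10 and S100A11 on the left and the block from S100A6 to S100A13 on the right.

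Of the 11 other S100 genes, 7 were listed at 0 in all libraries and only S100A5 reached the fit. S100A5, which lies beside S100A6, had 2.58, 0.90 and 1.01 TPM in ArA replicates 1, 2 and 3, against 1.24, 1.73 and 0.79 TPM in control replicates 1, 2 and 3. The groups overlapped, and the limma adjusted p was 0.999. S100B was listed at 0 in the 3 ArA libraries and at 0.08, 0.07 and 0.10 TPM in control replicates 1, 2 and 3. S100Z and S100A1 were below 1 TPM in all 6 libraries.

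The binding partners and other calcium-binding proteins were followed in 5 lists that hold the other S100 genes, the annexins, the intracellular partners, the surface receptors and other EF-hand proteins. They name 92 genes, of which 71 entered the fit, and 0 passed an adjusted p of 0.05 in limma in either direction, nor an unadjusted p of 0.05, where 2.78% of all tested genes were called in either direction. Of 8 annexins in the fit, 7 had positive log2 fold changes, with a median of 0.07, and 0 had separated groups. Over all tested genes 68.9% were positive, the median was 0.06, and 6.84% had all ArA libraries above all control libraries. Annexin A2, the partner of S100A10, had 2236, 2402 and 2550 TPM in ArA replicates 1, 2 and 3, against 2229, 2119 and 2271 TPM in control replicates 1, 2 and 3. The ratio of ANXA2 to S100A10 was 3.50 ± 0.196 in ArA libraries and 3.46 ± 0.396 in control libraries (SD, n = 3 each), and the groups overlapped. ANXA5, the next most abundant annexin, had 346 ± 11.3 TPM in ArA libraries and 329 ± 17.7 TPM in control libraries.

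The ratio of S100A11 to its partner ANXA1 was highest in the libraries at the GC-rich end of base composition. It was 4.97, 2.70 and 2.53 in ArA replicates 1, 2 and 3, against 2.71, 5.98 and 3.10 in control replicates 1, 2 and 3. These were ArA replicate 1 and control replicate 2, and the part of GC content in this ratio was not tested. The ratio of S100A6 to CACYBP showed the same libraries on top, at 31.9, 28.3 and 24.7 in ArA replicates 1, 2 and 3, against 21.9, 35.4 and 23.5 in control replicates 1, 2 and 3. ANXA1 and CACYBP were named after their values had been seen.

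Of 17 intracellular partners in the fit, 16 had positive log2 fold changes, with a median of 0.07 and 0 with separated groups. The most abundant were MYH9, the heavy chain of the myosin that S100A4 binds, at 284 ± 20.3 TPM in ArA libraries and 257 ± 32.1 TPM in control libraries, and the co-chaperone gene STIP1, at 259 ± 1.33 and 252 ± 15.1 TPM in the same groups (SD, n = 3 each). Ezrin (EZR), the partner of S100P, had 123 to 131 TPM in ArA libraries and 114 to 137 TPM in control libraries. Of 9 receptor genes in the fit, 7 were positive, with a median of 0.12, and 0 had separated groups. Beside the partners and receptors alike, all tested genes were 68.9% positive, with a median of 0.06 and 6.84% separated upward. BSG, a surface glycoprotein that binds S100A9, had 1590 to 2077 TPM in ArA libraries and 1483 to 1898 TPM in control libraries. CD68, a lysosomal membrane glycoprotein gene that stands in this list but is not an established S100 receptor, had 234 ± 28.6 and 199 ± 19.4 TPM in the same groups (SD, n = 3 each). AGER, which encodes RAGE, was low, at 0.77, 0.69 and 1.83 TPM in ArA replicates 1, 2 and 3, against 2.06, 0.89 and 1.05 TPM in control replicates 1, 2 and 3.

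Of 36 other EF-hand genes in the fit, 32 had positive log2 fold changes, with a median of 0.08. Over all tested genes the positive share was 68.9% and the median 0.06. Of this list only PEF1, a penta-EF-hand protein, and LCP1, an actin bundler, had separated groups, both higher in ArA libraries. Among all tested genes, 6.84% were separated upward. LCP1 had 88.3, 78.5 and 82.8 TPM in ArA replicates 1, 2 and 3, against 76.3, 74.5 and 70.7 TPM in control replicates 1, 2 and 3. PEF1 had 28.8, 29.2 and 29.1 TPM in ArA replicates 1, 2 and 3, against 22.9, 28.7 and 28.1 TPM in control replicates 1, 2 and 3. The most abundant gene of the list, the myosin light chain MYL6, had 1800 ± 20.7 TPM in ArA libraries and 1735 ± 169 TPM in control libraries (SD, n = 3 each). CAPNS1, the small calpain subunit, had 692 ± 27.1 and 691 ± 88.4 TPM in the same groups.

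**Figure D4:**
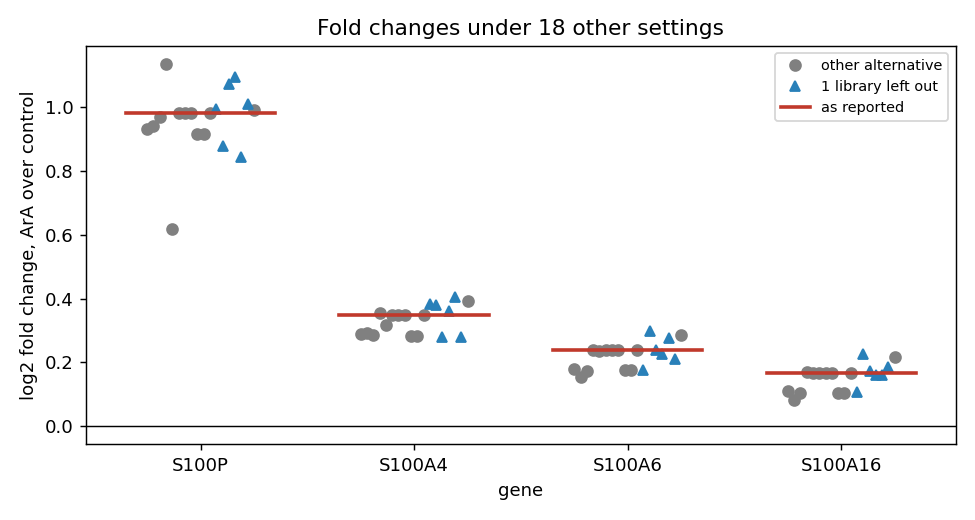
Log2 fold change of ArA over control for S100P, S100A4, S100A6 and S100A16 as reported (red line), under the 6 settings that leave out 1 library (blue triangles) and under 12 other settings (grey circles). All values are above 0, from 0.62 to 1.14 for S100P, 0.28 to 0.41 for S100A4, 0.16 to 0.30 for S100A6 and 0.08 to 0.23 for S100A16. The groups of these genes did not overlap, so only the scalings and GC correction could have brought a value below 0. Both ends of the S100P range came from the pseudocounts, which change the scale.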

How the data were processed

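The 6 libraries (3 ArA, 3 control) of MDA-MB-231 RNA were grouped by sample title. The authors deposited 1 table of TPM per gene. The submitters' processing notes name HISAT2, StringTie, RSEM and hg38. Their versions, the annotation and the strand setting are not stated there. Read totals cannot be had from TPM, so depth and counting intervals are unknown. The 50 lines that name no gene were left out, and 1 listed blood cell marker is not reported here.

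Genes averaging 1 TPM or more over the 6 libraries (12999, including 9 of the 10 S100 genes) were put on log2(TPM + 1), and limma 3.58.1 was run in R 4.3.3 (eBayes with trend, group as the only term), 2-sided, with Benjamini-Hochberg adjustment over all of them. The fit was also run on simulated independent noise, with changes added only to genes of higher level than S100P. That run lacked the base composition differences between libraries and gives no error rate for these data. Groups are called separated where the ranges of the 3 ArA and the 3 control values do not overlap. The members, lists and settings were chosen with earlier results of these data known. Named genes were all members, every list gene past the threshold and, in lists without any, the 2 most abundant genes and up to 2 with separated groups, besides marker genes by their range and the genes of the chromosome 1 S100 cluster. The others named were chosen after their values were seen: EZR, AGER, FGF1, ANXA1, CACYBP and S100B. Positions, exon overlaps and GC content (12637 of 12999 tested genes) came from GENCODE v29, and sequences from RefSeq. The alternatives were 3 scalings, 2 pseudocounts, 2 filters, the replicate block, GC correction with and without it, eBayes without trend, each library left out in turn, and 2 libraries left out together.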

Additional observations from a re-analysis of the deposited data

How the results depend on the processing

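S100P kept a positive log2 fold change under all 18 alternatives (0.62 to 1.14, adjusted p from 0.249 to 1 in limma). Under any of the 18, 0 of the S100 genes and 0 of the list genes passed an adjusted p of 0.05 in limma. The groups of S100P, S100A4, S100A6 and S100A16 did not overlap, so only the 3 scalings and GC correction could have changed their sign. Both ends of the S100P range came from the pseudocounts, 0.62 with 5 and 1.14 with 0.1, which change the scale of the fold change. Leaving out 1 library moved S100P between 0.84 and 1.09. S100A2 turned to -0.0040 after GC correction, with or without the replicate block, and ranged from -0.0476 to 0.17 when 1 library was left out, with the negative value coming without ArA replicate 3; the cause was not tested. The other 7 S100 genes in the fit stayed positive under all alternatives. Without control replicate 1, S100A10, S100A11, S100A13 and S100A3 were at 0.03, 0.02, 0.05 and 0.12 (0.10, 0.08, 0.10 and 0.20 as reported), and without control replicate 2 at 0.16, 0.13, 0.15 and 0.29. Less the median of all tested genes, S100A10, S100A11 and S100A13 were at -0.05, -0.06 and -0.02 without control replicate 1. The median of all tested genes was 0.06 as reported and -0.0021 with mitochondrially encoded genes left out of the total. The number of S100 genes with separated groups was 4 as reported (6.84% of all tested genes), 1 with median of ratios (2.93%), 3 with quantile normalization (3.01%), 2 without mitochondrially encoded genes (3.36%), 8 without control replicate 2 (16.8%), and 8 when ArA replicate 1 was left out with it (32.8%). The count of all genes past the threshold was 3 as reported, 0 with the replicate block, 5 with GC correction, 0 to 7 with 1 library left out and 12 without control replicate 2 and ArA replicate 1. The labels give replicate numbers but no shared day or culture, so the numbers are not taken as pairs. Deviations of same-numbered libraries had correlations of -0.16, -0.28 and 0.11 for numbers 1, 2 and 3. With 3 libraries per group these cannot tell whether such libraries shared a culture. With the replicate block, S100P kept its value of 0.98, with an SE of 0.21 instead of 0.18. Without counts, the precision of genes of a few TPM, S100P among them, is known only from the 3 libraries of each group.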
